A study of Homo sapiens with 9 samples.

Results

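The centromere is the stretch of chromatin on which each chromosome builds its kinetochore, the protein assembly that binds spindle microtubules in mitosis. The genes described here are those whose symbol starts with CENP (centromere protein) followed by letters, together with 21 other genes of the kinetochore, its checkpoint and its cohesin protectors. The rule found 40 genes among 51796 in the authors' count table, all 40 passed the filter on low counts, and 18292 genes passed it in all. It left out 5 pseudogene copies, which were not tested.

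The RNA came from A549, a human line of epithelial cells established from a lung adenocarcinoma, and was sequenced in 9 libraries, 3 in each of 3 groups. One group received DMSO, the solvent. GSK591, which inhibits the methyltransferase PRMT5, and MS023, which inhibits the type I protein arginine methyltransferases, were each given at 1 µM for 7 days. Control plates were seeded with 0.2 × 1e5 cells and treated plates with 0.4 × 1e5 cells, per the labels, so seeding density and treatment cannot be told apart. The labels do not say whether the libraries of a group came from separate cultures, so p-values measure only the spread between these libraries.

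As background, a centromere is marked by nucleosomes that hold CENP-A in place of histone H3. On them sits the constitutive centromere-associated network (CCAN), the inner kinetochore, which stays at centromeres through the cell cycle. In mitosis the CCAN recruits the KMN network, made of KNL1, the MIS12 complex and the NDC80 complex, and NDC80 grips the microtubule. Unattached kinetochores recruit the spindle assembly checkpoint proteins and the fibrous corona, and hold back anaphase until all chromosomes are attached. Many of these genes are known to be transcribed mainly in late S phase, G2 and mitosis, so their RNA in a population depends on how many cells are in those phases. In bulk RNA, fewer cells in a phase and less RNA per cell cannot be told apart.

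Total counts ran from 31398075 to 51244525 per library. The library GSK591 3 stood apart by its mitochondrial ribosomal RNA, at 932.5 CPM (counts scaled to library size by TMM) against 0.410 to 20.7 CPM elsewhere, with DMSO 1 the highest of these. Of the members, 36 were called lower and 1 higher with GSK591 when DMSO 1 and GSK591 3 were both left out, against 36 and 0 with them. The epithelial markers summed to 6402 to 6528 CPM with DMSO, 7687 to 7952 with GSK591 and 5133 to 5331 with MS023. The fibroblast list summed to 14.4 to 16.9, 8.74 to 10.3 and 27.0 to 30.1 CPM, the leukocyte list to 6.02 to 9.04 CPM over all libraries and the endothelial list to under 0.6 CPM. All 6 epithelial markers were present, and KRT8, KRT18 and KRT7 made up most of their sum. EPCAM moved against that sum, with a log2 change of -1.07 with GSK591 (adjusted p = 5.99e-08) and 0.64 with MS023 (adjusted p = 6.77e-06) in edgeR. The other epithelial markers did not move alike either. With GSK591, KRT19 rose by 1.65 log2 units, KRT8 by 0.45 and CDH1 by 0.23, while KRT18 and KRT7 were not called. With MS023, KRT8, KRT18, KRT7 and CDH1 were called lower, and KRT19, at 0.11, was not called. The leukocyte sum was nearly all CD14, with PTPRC and CD3E each under 0.1 CPM in all libraries, the fibroblast sum was mostly COL1A1 and COL3A1, with COL1A2 under 0.1 CPM, and 2 of 3 endothelial markers were matched. With MS023, COL1A1 rose by 1.10 log2 units, while COL3A1, at -0.23, was not called. Both were called lower with GSK591. CDH5, an endothelial marker, was called higher with MS023, by 2.64 log2 units, at a mean of only 0.417 CPM. The part of these markers in the members' changes was not tested. In the GENCODE 29 annotation, 24 of the 40 members overlap another gene, 21 of them on the opposite strand, and the strand setting of the counting is not given in the sources used here.

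With GSK591, the RNA of nearly all members fell: 36 of the 40 were called lower and 0 higher. They ranged from the gene of the centromeric histone to those of the microtubule-binding end, and protein was not measured. Called means an adjusted p under 0.05 in edgeR's quasi-likelihood test, adjusted by Benjamini-Hochberg over all genes tested, and all adjusted p-values here are from that test unless another is named. Of all genes tested, 32.4% were called lower and 30.1% higher. The members' median log2 change was -0.79, where that of all genes was 0.01. The log2 change was negative for 39 of the 40 members, and for 38 the GSK591 and DMSO libraries did not overlap. Neither count was taken over all genes tested, so both describe the members without a background. At least 2-fold lower were 8 members, CENPH, SPC24, CENPA, SPC25, CENPW, CENPI, DSN1 and BUB1, against 2.68% of all genes. The 4 members not called were CENPB, CENPT, ZW10 and MAD1L1. The count of 0 higher became 1, CENPT, without DMSO 1, GSK591 3 or MS023 1, which also entered the fit. At an unadjusted p under 0.05, 1 was higher and 36 were lower, and DESeq2 called 0 higher.

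With MS023 the same set moved less and less evenly: 30 members were called lower, 4 higher and 6 were not called, beside 25.9% of all genes called lower and 25.1% higher. The median log2 change was -0.26, against -0.00 over all genes. The members called higher were CENPB, CENPT, CENPO and ZWINT, and those not called were PMF1, CENPI, CENPM, CENPN, CENPJ and MAD1L1. No member fell 2-fold, as 3.94% of all genes did. The number called higher was 2 without DMSO 2 or without DMSO 3, and 1 without MS023 3. The number called lower was 25 to 30 over the fits that each left out a library. In the authors' FPKM the MS023 changes were called for 17 members, all lower, with a pseudocount of 1 and no filter. In that setting, 2606 of 31508 genes were called lower and 2844 higher.

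The inhibitors, given at the same dose and for the same time, were also compared directly. With MS023, 35 members were higher than with GSK591 and 1 was lower, where 33.6% of all genes were called higher and 31.7% lower. The median log2 difference of the members was 0.58, against 0.00 over all genes. Of those higher, 22 differed by at least 0.5 log2 units, as did 14.2% of all genes. CENPC, CENPT, ZW10 and MAD1L1 were not called, and the 1 lower member, CENPBD1, lost its call without any of DMSO 1, DMSO 3, GSK591 2, GSK591 3, MS023 1 or MS023 2. The 3 comparisons share libraries, so their values stand side by side below and are not independent of each other.

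**Figure D1:**
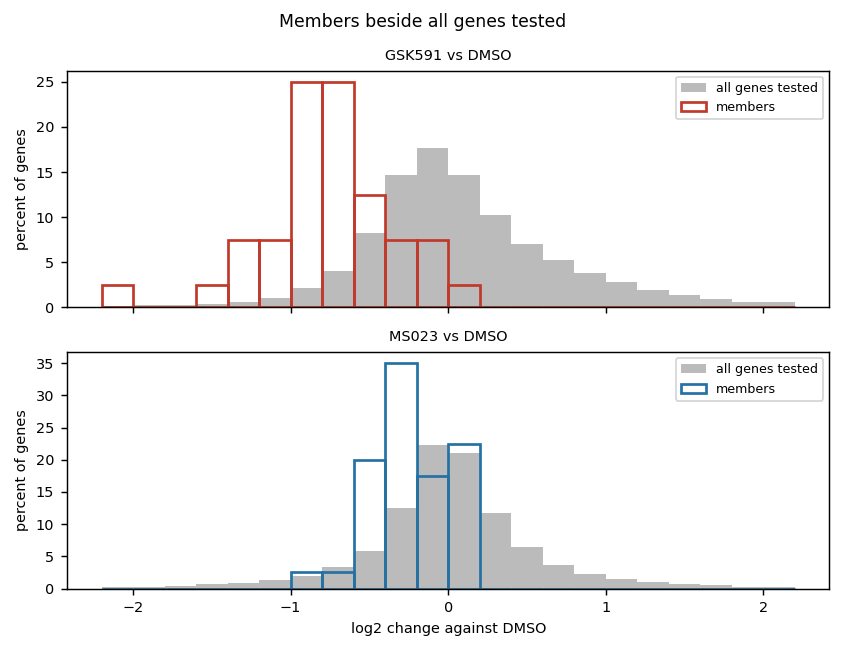
Percent of genes (vertical axis) in each bin of log2 change against DMSO (horizontal axis), for GSK591 above and MS023 below, with all 18292 genes tested as filled bars and the 40 members as outlined bars. The members lie mostly left of 0 with GSK591, around their median of -0.79, and nearer to 0 with MS023, around -0.26.

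**Figure D2:**
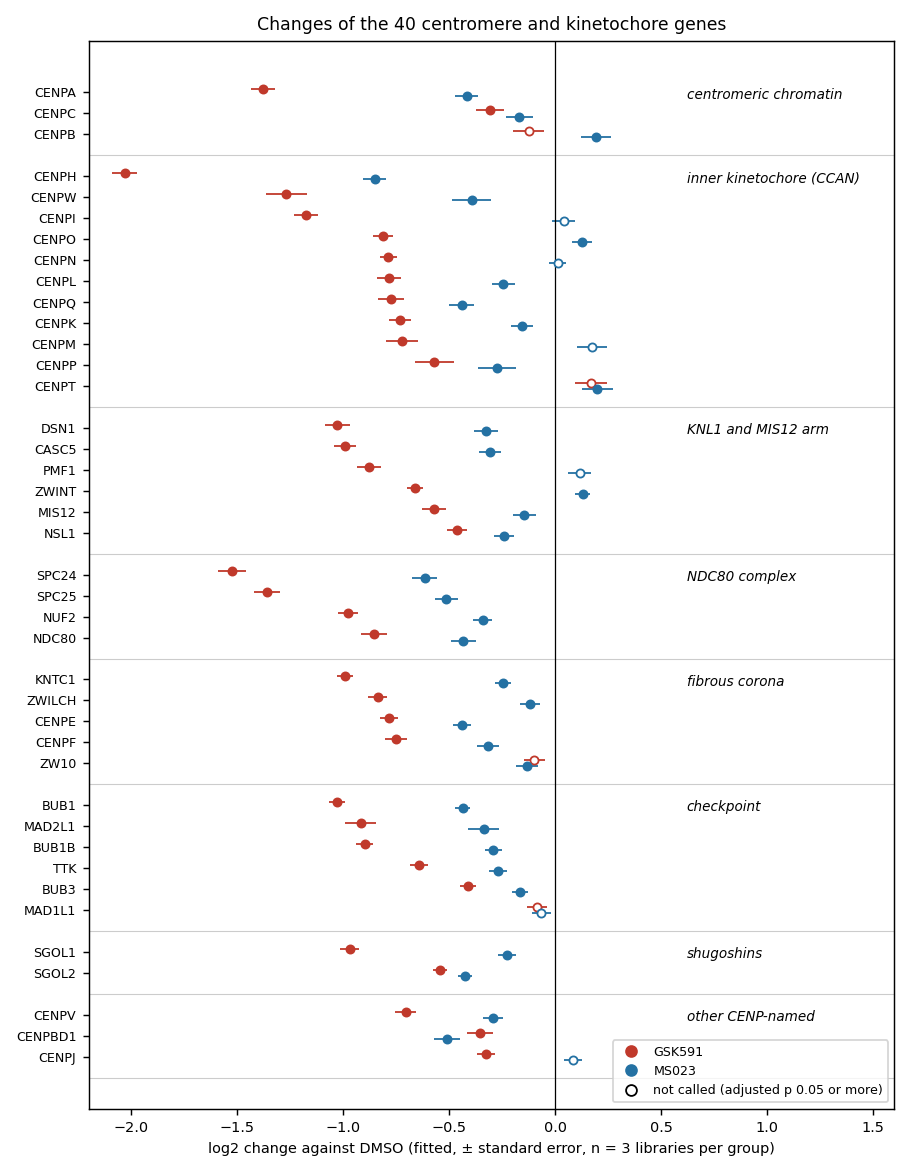
Log2 change against DMSO (horizontal axis) of each of the 40 members, grouped by role, for GSK591 in red and MS023 in blue. Points are fitted values, bars are standard errors with 3 libraries per group, and open points were not called; the red points lie left of the blue points for all members but CENPBD1 and ZW10.

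The promoters of a pair of members with a large fall and of a pair not called with GSK591 are shown because genes of late cell cycle are known to share promoter elements. The pair with a large fall was taken only from members that hold a searched match before the start site. Its matches were therefore fixed by the choice. The pair not called was taken without regard to matches. These elements are the cell cycle genes homology region (CHR, searched as TTTGAA or TTCGAA), the CCAAT box and the E2F site (searched as TTTCCCGC, TTTCGCGC, TTTGCCGC or TTTGGCGC). Both strands were searched in RefSeq windows of GRCh38.p14 that run from 250 bases before to 50 after the start site. RefSeq windows were matched for 32 of the 40 members. None was matched for CENPH, the member with the largest fall, or for CASC5, CENPL, CENPM, KNTC1, CENPBD1, BUB3 and TTK. The choice of pairs and the motif counts and medians below leave these members out. The 150 bases before the start site are printed 5′ to 3′ on the gene's strand, with matches on either strand in capitals. SPC24 is at chr19:11155783-11155932, minus strand, CENPA at chr2:26785906-26786055, plus strand, CENPT at chr16:67847694-67847843, minus strand and MAD1L1 at chr7:2232946-2233095, minus strand.
SPC24: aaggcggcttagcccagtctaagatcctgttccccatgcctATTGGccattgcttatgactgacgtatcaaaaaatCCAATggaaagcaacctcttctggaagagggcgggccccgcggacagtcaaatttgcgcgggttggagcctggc
CENPA: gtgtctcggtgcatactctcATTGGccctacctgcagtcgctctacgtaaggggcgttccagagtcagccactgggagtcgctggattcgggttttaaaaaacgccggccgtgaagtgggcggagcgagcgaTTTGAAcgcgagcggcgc
CENPT: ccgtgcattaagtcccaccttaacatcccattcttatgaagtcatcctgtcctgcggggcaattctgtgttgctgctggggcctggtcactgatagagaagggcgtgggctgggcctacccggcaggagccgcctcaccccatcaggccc
MAD1L1: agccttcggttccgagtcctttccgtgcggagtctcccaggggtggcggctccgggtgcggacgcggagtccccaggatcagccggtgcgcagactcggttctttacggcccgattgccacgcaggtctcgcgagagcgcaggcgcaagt
The SPC24 stretch holds 2 CCAAT boxes, 1 of them read on the opposite strand, and the CENPA stretch holds 1 CCAAT box and 1 CHR close to the start site. The CENPT and MAD1L1 stretches hold none of these letters, which says nothing about the factors that bind there. ZW10, also not called with GSK591, holds a CHR and a CCAAT match in its window. Given how the pairs were picked, the printed stretches cannot show a difference in motifs between members that fell and members not called.

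Over the whole windows, a CHR match was found in 15 of the 32 members (46.9%), against 16.6% of all 27305 RefSeq windows of that length. A CCAAT box was found in 18 members (56.2%), against 35.7% of all windows, and an E2F match in 2 (6.2%), against 3.3%. All windows include those of genes that did not pass the filter on low counts, while all members passed it. The shares were not taken over the genes tested. Both of the 2 members with an E2F match, CENPA and MIS12, also held CCAAT boxes. The median log2 change with GSK591 was -0.90 over the 15 members with a CHR match and -0.71 over the 17 without. For the CCAAT box the medians were -0.81 over 18 members with it and -0.74 over 14 without. The 10 members with none of the 3 motifs had a median of -0.52, and among them CENPI fell by 1.18 log2 units and DSN1 by 1.03. These medians describe the members, with no test, and a match is not evidence of a working site.

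**Figure D3:**
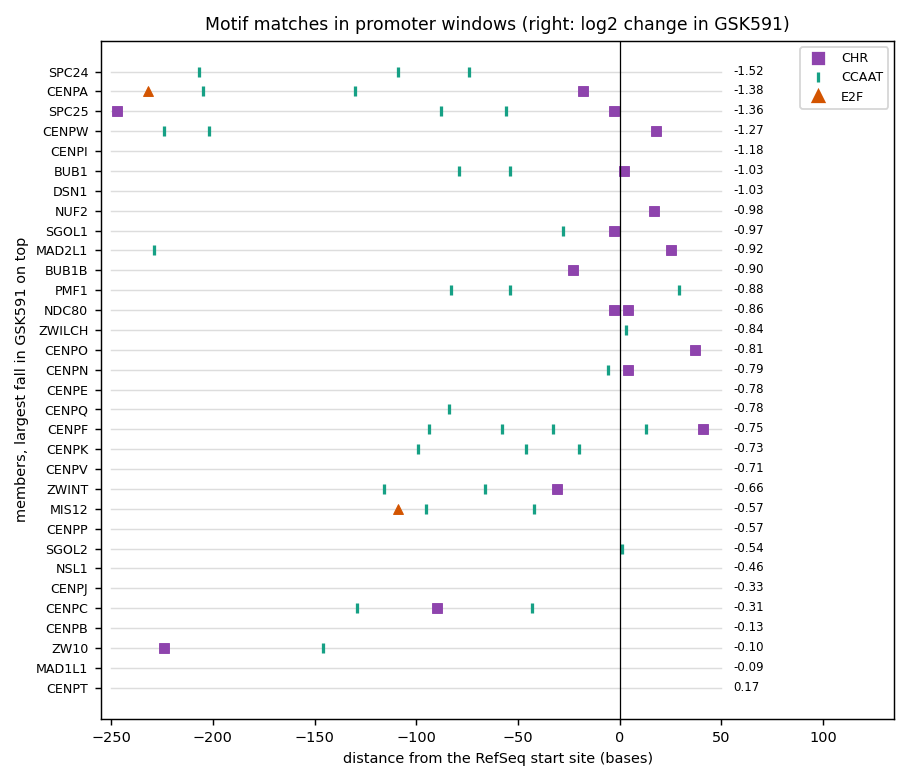
Position of each match to the CHR (squares), the CCAAT box (ticks) and the E2F site (triangles) in bases from the RefSeq start site (horizontal axis), for the 32 members with a window, ordered by their log2 change with GSK591, which is printed on the right. CHR matches are present down the order from CENPA at -1.38 to ZW10 at -0.10, while CENPI and DSN1, near the top, have no match.

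In centromeric chromatin, the RNA of the histone variant fell while the RNAs of the other DNA-contacting proteins moved little. CENPA encodes the H3 variant that defines the centromere, CENPB a protein that binds a short box in alpha satellite DNA, and CENPC a protein that bridges the CENP-A nucleosome and the outer kinetochore. The CENPA gene (ENSG00000115163, chr2:26987157-27023935) gave 58.9, 70.5 and 65.9 CPM with DMSO, 24.8, 24.8 and 25.6 CPM with GSK591 and 50.7, 46.9 and 48.7 CPM with MS023. For CENPA, every GSK591 library was below every MS023 library, and every MS023 library was below every DMSO library. With GSK591, CENPA fell by 1.38 ± 0.06 log2 units (adjusted p = 5.62e-11), and with MS023 it fell by 0.42 ± 0.06 log2 units (adjusted p = 1.85e-05). CENPA in MS023 was 0.96 ± 0.06 log2 units above that in GSK591 (adjusted p = 1.49e-09). That is a 2.60-fold lower level with GSK591. For CENPB (ENSG00000125817, chr20:3764498-3767337), the DMSO libraries held 167, 137 and 146 CPM, the GSK591 libraries 143, 133 and 136 CPM and the MS023 libraries 152, 178 and 183 CPM. All GSK591 libraries of CENPB were below all MS023 libraries, and the DMSO libraries overlapped both groups. With MS023, CENPB rose by 0.19 ± 0.07 log2 units (adjusted p = 0.0369), and its log2 change with GSK591, -0.13 ± 0.07 (adjusted p = 0.145), was not called. Between the inhibitors, CENPB was 0.32 ± 0.07 log2 units higher with MS023 (adjusted p = 0.00127). The CENPB call for MS023 was lost without DMSO 2 (adjusted p = 0.121), DMSO 3 (adjusted p = 0.109), MS023 2 (adjusted p = 0.117) or MS023 3 (adjusted p = 0.157). CENPC (ENSG00000145241, chr4:68337521-68411324) was at 21.9, 24.7 and 25.6 CPM in the DMSO libraries, at 18.7, 20.9 and 18.8 CPM in the GSK591 libraries and at 20.6, 22.7 and 21.0 CPM in the MS023 libraries. All GSK591 libraries of CENPC were below all DMSO libraries, and the MS023 libraries overlapped both groups. With GSK591, CENPC fell by 0.31 ± 0.07 log2 units (adjusted p = 0.000921), and with MS023 it fell by 0.17 ± 0.07 log2 units (adjusted p = 0.0425). Between the inhibitors, the log2 difference of CENPC, MS023 against GSK591, was 0.14 ± 0.07 (adjusted p = 0.0813) and was not called. The CENPC call for MS023 was lost without DMSO 2 (adjusted p = 0.156), DMSO 3 (adjusted p = 0.176), GSK591 1 (adjusted p = 0.0735), GSK591 3 (adjusted p = 0.0644), MS023 1 (adjusted p = 0.128) or MS023 3 (adjusted p = 0.113). The CENPC change for the difference between the inhibitors was called without DMSO 1 (adjusted p = 0.0419) or GSK591 2 (adjusted p = 0.0383). The CENPB call for MS023 was lost in 9 of 21 alternative settings, that of CENPC in 12 of 21. From CPM, the CENPA to CENPC ratio on the log2 scale was 1.43, 1.51 and 1.37 in DMSO, 0.41, 0.24 and 0.44 in GSK591 and 1.30, 1.04 and 1.21 in MS023. The pair was thus most unequal in its response with GSK591, where every ratio was below every ratio of the other groups. CENPA shares part of its span with SLC35F6 on the same strand, so some of its reads may belong to that gene.

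The inner kinetochore network held the member with the largest fall of all, CENPH, and the 1 member with a positive log2 change in GSK591, CENPT. Of its 11 members here, 10 were called lower with GSK591, with a class median of -0.79. With MS023, 6 were called lower, 2 higher and 3 were not called, with a class median of -0.16. Further genes of the network carry other symbols here and are counted among the partners below: MLF1IP, ITGB3BP, APITD1 and STRA13. Their log2 changes with GSK591 were -0.82, -0.97, -0.68 and -0.37, all called. With MS023 they were -0.18, -0.33, -0.25 and 0.40, of which that of APITD1 was not called (adjusted p = 0.0628). CENPH, CENPI, CENPK and CENPM encode proteins that form 1 subcomplex of the network. The CENPH gene (ENSG00000153044, chr5:68485375-68506184) gave 44.4, 49.6 and 47.9 CPM with DMSO, 12.2, 10.7 and 11.9 CPM with GSK591 and 27.3, 25.3 and 26.0 CPM with MS023. For CENPH, every GSK591 library was below every MS023 library, and every MS023 library was below every DMSO library. With GSK591, CENPH fell by 2.03 ± 0.06 log2 units (adjusted p = 2.59e-12), and with MS023 it fell by 0.85 ± 0.06 log2 units (adjusted p = 1.29e-08). Between the inhibitors, CENPH was 1.18 ± 0.06 log2 units higher with MS023 (adjusted p = 2.75e-10). In fold terms CENPH was 4.09-fold lower with GSK591 and 1.81-fold lower with MS023. For CENPI (ENSG00000102384, chrX:100353178-100418670), the DMSO libraries held 38.8, 39.6 and 36.6 CPM, the GSK591 libraries 17.7, 15.7 and 17.5 CPM and the MS023 libraries 40.6, 37.2 and 40.3 CPM. For CENPI, MS023 and DMSO overlapped, and all GSK591 libraries were below them. With GSK591, CENPI fell by 1.18 ± 0.06 log2 units (adjusted p = 1.85e-10), and its log2 change with MS023, 0.04 ± 0.05 (adjusted p = 0.564), was not called. CENPI in MS023 was 1.22 ± 0.06 log2 units above that in GSK591 (adjusted p = 7.17e-11). CENPK (ENSG00000123219, chr5:64813593-64858998) was at 57.6, 55.3 and 54.8 CPM in the DMSO libraries, at 31.5, 32.7 and 36.5 CPM in the GSK591 libraries and at 48.2, 50.2 and 51.9 CPM in the MS023 libraries. For CENPK no groups overlapped: the GSK591 libraries were lowest, the MS023 libraries came next and the DMSO libraries were highest. With GSK591, CENPK fell by 0.73 ± 0.05 log2 units (adjusted p = 1.47e-08), and with MS023 it fell by 0.16 ± 0.05 log2 units (adjusted p = 0.018). Between the inhibitors, CENPK was 0.58 ± 0.05 log2 units higher with MS023 (adjusted p = 1.52e-07). The CENPK call for MS023 was lost without DMSO 1 (adjusted p = 0.09) or MS023 1 (adjusted p = 0.0723). The CENPM gene (ENSG00000100162, chr22:42334725-42343168) gave 12.1, 13.1 and 13.2 CPM with DMSO, 8.23, 6.99 and 8.11 CPM with GSK591 and 15.2, 13.4 and 14.7 CPM with MS023. For CENPM, every GSK591 library was below every DMSO library, and every DMSO library was below every MS023 library. With GSK591, CENPM fell by 0.72 ± 0.08 log2 units (adjusted p = 1.08e-06), and its log2 change with MS023, 0.17 ± 0.07 (adjusted p = 0.0553), was not called. CENPM in MS023 was 0.90 ± 0.08 log2 units above that in GSK591 (adjusted p = 7.06e-08). The CENPM change for MS023 was called without GSK591 1 (adjusted p = 0.0425), GSK591 2 (adjusted p = 0.0402), GSK591 3 (adjusted p = 0.0423) or MS023 2 (adjusted p = 0.0294).

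Although the products of these 4 genes assemble together, their RNAs did not move alike. The log2 ratio of CENPH to CENPK was -0.38, -0.16 and -0.20 in DMSO, -1.36, -1.61 and -1.62 in GSK591 and -0.82, -0.99 and -0.998 in MS023. Against CENPI, the CENPH ratio was 0.19, 0.33 and 0.39 in DMSO, -0.53, -0.56 and -0.56 in GSK591 and -0.57, -0.56 and -0.63 in MS023. Against CENPM, it was 1.87, 1.93 and 1.86 in DMSO, 0.57, 0.61 and 0.55 in GSK591 and 0.84, 0.91 and 0.83 in MS023. In all 3 ratios CENPH was lower relative to its partner in every treated library than in every DMSO library. The CENPH to CENPI ratio had overlapping values in the treated groups, while the other ratios were lowest in GSK591. In hg19, CENPH lies 11.3 kb from CCNB1, the cyclin of mitotic entry, which fell by 0.78 log2 units with GSK591 and by 0.24 with MS023. On its other side, at 7.4 kb, MRPS36 fell by 0.57 log2 units with GSK591 and CDK7, at 24.5 kb, rose by 0.18. The CENPH fall was larger than that of each of these neighbours, and no other gene overlaps CENPH in GENCODE 29.

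CENPL and CENPN encode a pair that recognises the CENP-A nucleosome. For CENPL (ENSG00000120334, chr1:173768688-173793858), the DMSO libraries held 19.8, 21.9 and 21.6 CPM, the GSK591 libraries 12.5, 12.3 and 12.1 CPM and the MS023 libraries 17.0, 18.4 and 18.2 CPM. In CENPL, GSK591, MS023 and DMSO followed each other in rising order, without overlap. With GSK591, CENPL fell by 0.79 ± 0.06 log2 units (adjusted p = 1.92e-08), and with MS023 it fell by 0.25 ± 0.05 log2 units (adjusted p = 0.00173). Between the inhibitors, CENPL was 0.54 ± 0.06 log2 units higher with MS023 (adjusted p = 9.04e-07). CENPN (ENSG00000166451, chr16:81040103-81066719) was at 60.1, 62.4 and 59.4 CPM in the DMSO libraries, at 35.9, 33.2 and 36.4 CPM in the GSK591 libraries and at 60.9, 60.8 and 61.7 CPM in the MS023 libraries. For CENPN, MS023 and DMSO overlapped, and all GSK591 libraries were below them. With GSK591, CENPN fell by 0.79 ± 0.04 log2 units (adjusted p = 5.74e-10), and its log2 change with MS023, 0.01 ± 0.04 (adjusted p = 0.822), was not called. CENPN in MS023 was 0.80 ± 0.04 log2 units above that in GSK591 (adjusted p = 2.93e-10). CENPN thus fell with GSK591 to about the same extent as CENPL, and its MS023 level could not be distinguished from DMSO at this spread. CENPO, CENPP and CENPQ belong to a further subcomplex. The CENPO gene (ENSG00000138092, chr2:25016005-25045245) gave 50.6, 47.9 and 52.2 CPM with DMSO, 29.4, 26.7 and 29.8 CPM with GSK591 and 54.3, 55.3 and 54.9 CPM with MS023. For CENPO, every GSK591 library was below every DMSO library, and every DMSO library was below every MS023 library. With GSK591, CENPO fell by 0.81 ± 0.05 log2 units (adjusted p = 1.95e-09), and with MS023 it rose by 0.13 ± 0.05 log2 units (adjusted p = 0.0329). Between the inhibitors, CENPO was 0.94 ± 0.05 log2 units higher with MS023 (adjusted p = 2.32e-10). The CENPO call for MS023 was lost without DMSO 2 (adjusted p = 0.0892), MS023 1 (adjusted p = 0.0533), MS023 2 (adjusted p = 0.0869) or MS023 3 (adjusted p = 0.0787). CENPO rose with MS023 while it fell with GSK591, though the rise was small and was lost in 8 of 21 alternative settings. CENPQ fell by 0.78 log2 units with GSK591 and by 0.44 with MS023. CENPP, the member with the lowest level, fell by 0.57 and 0.27 log2 units. The CENPP call for MS023 was lost without DMSO 2 (adjusted p = 0.0614), DMSO 3 (adjusted p = 0.0511), MS023 1 (adjusted p = 0.0564) or MS023 3 (adjusted p = 0.0578). The CENPP call for the difference between the inhibitors was lost without GSK591 2 (adjusted p = 0.0877), GSK591 3 (adjusted p = 0.056) or MS023 2 (adjusted p = 0.0508).

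CENPT and CENPW encode histone-fold proteins that pair and link DNA to the NDC80 complex. For CENPW (ENSG00000203760, chr6:126661320-126670021), the DMSO libraries held 14.5, 18.0 and 17.5 CPM, the GSK591 libraries 7.49, 6.42 and 7.00 CPM and the MS023 libraries 14.3, 11.7 and 12.0 CPM. In CENPW, GSK591, MS023 and DMSO followed each other in rising order, without overlap. With GSK591, CENPW fell by 1.27 ± 0.10 log2 units (adjusted p = 4.16e-08), and with MS023 it fell by 0.39 ± 0.09 log2 units (adjusted p = 0.00231). CENPW in MS023 was 0.87 ± 0.10 log2 units above that in GSK591 (adjusted p = 2.11e-06). CENPT (ENSG00000102901, chr16:67862060-67881714) was at 17.9, 15.2 and 15.4 CPM in the DMSO libraries, at 18.4, 18.3 and 17.5 CPM in the GSK591 libraries and at 16.7, 19.6 and 19.2 CPM in the MS023 libraries. For CENPT, each group overlapped both others. With MS023, CENPT rose by 0.20 ± 0.07 log2 units (adjusted p = 0.0362), and its log2 change with GSK591, 0.17 ± 0.07 (adjusted p = 0.0641), was not called. Between the inhibitors, the log2 difference of CENPT, MS023 against GSK591, was 0.03 ± 0.07 (adjusted p = 0.723) and was not called. The CENPT change for GSK591 was called without DMSO 1 (adjusted p = 0.00539), GSK591 3 (adjusted p = 0.0458) or MS023 1 (adjusted p = 0.0409). The CENPT call for MS023 was lost without DMSO 2 (adjusted p = 0.104), DMSO 3 (adjusted p = 0.129), GSK591 2 (adjusted p = 0.0533), MS023 2 (adjusted p = 0.143) or MS023 3 (adjusted p = 0.125). CENPT was the member that least followed the rest, and its calls depended on the libraries used: over the alternative settings its GSK591 change ran from 0.07 to 0.29 log2 units and its MS023 call was lost in 11 of 21 of them. On the log2 scale, CENPT over CENPW was 0.31, -0.25 and -0.19 in DMSO, 1.30, 1.51 and 1.32 in GSK591 and 0.22, 0.74 and 0.68 in MS023. Every GSK591 ratio was above every other ratio, and DMSO and MS023 overlapped. CENPT overlaps TSNAXIP1, THAP11 and NUTF2 on the opposite strand, so part of its count may be theirs.

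**Figure D4:**
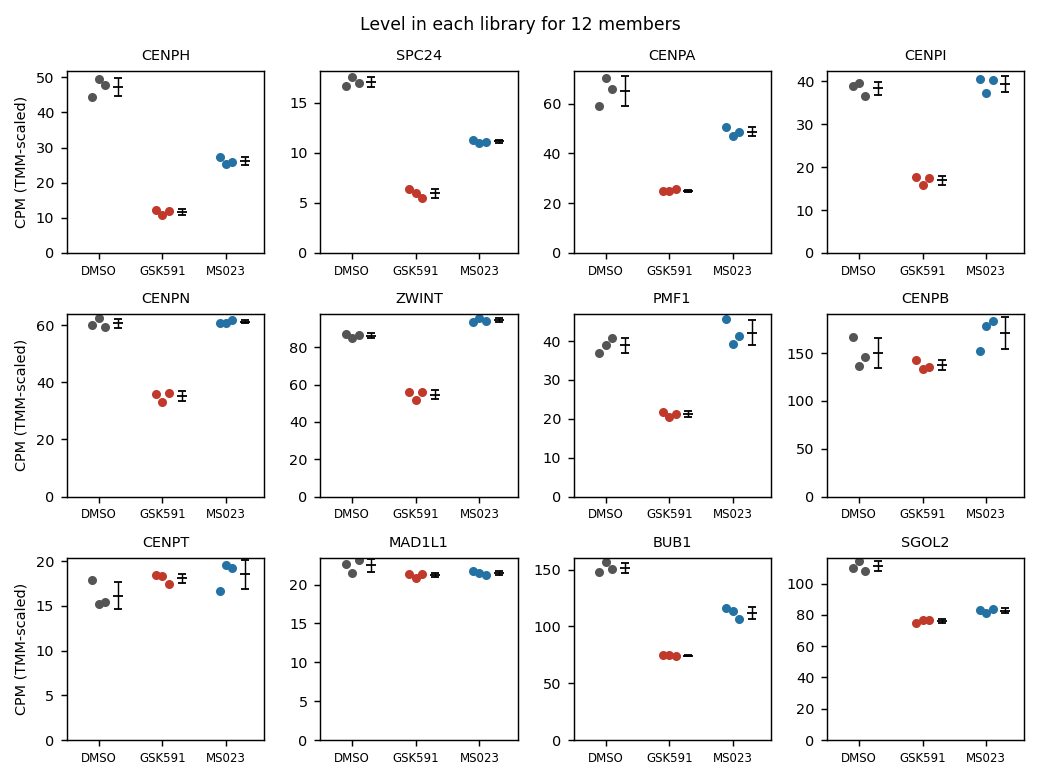
CPM (TMM-scaled, vertical axis from 0) of 12 members in each of the 9 libraries (points), with the mean and SD of each group as a bar beside them. CENPH falls from 44.4 to 49.6 CPM in DMSO to 10.7 to 12.2 in GSK591, CENPI and CENPN fall with GSK591 and overlap DMSO with MS023, and MAD1L1 shows little difference.

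The arm of the KMN network made of KNL1 and the MIS12 complex fell in all 6 members with GSK591, with a class median of -0.77. With MS023 it was split, with 4 members lower, 1 higher and 1 not called and a median of -0.19. CASC5, now named KNL1, encodes the scaffold that recruits BUB1 and BUB3. The CASC5 gene (ENSG00000137812, chr15:40886218-40956540) gave 82.2, 87.5 and 82.5 CPM with DMSO, 45.5, 42.9 and 38.7 CPM with GSK591 and 69.6, 65.5 and 68.4 CPM with MS023. For CASC5, every GSK591 library was below every MS023 library, and every MS023 library was below every DMSO library. With GSK591, CASC5 fell by 0.99 ± 0.05 log2 units (adjusted p = 6.65e-10), and with MS023 it fell by 0.31 ± 0.05 log2 units (adjusted p = 0.000162). CASC5 in MS023 was 0.68 ± 0.05 log2 units above that in GSK591 (adjusted p = 2.82e-08). DSN1, NSL1, PMF1 and MIS12 encode the 4 subunits of the MIS12 complex, the hub between inner and outer kinetochore. For DSN1 (ENSG00000149636, chr20:35380194-35402221), the DMSO libraries held 47.4, 53.5 and 49.3 CPM, the GSK591 libraries 23.6, 23.9 and 26.2 CPM and the MS023 libraries 42.8, 39.2 and 38.0 CPM. In DSN1, GSK591, MS023 and DMSO followed each other in rising order, without overlap. With GSK591, DSN1 fell by 1.03 ± 0.06 log2 units (adjusted p = 1.52e-09), and with MS023 it fell by 0.33 ± 0.06 log2 units (adjusted p = 0.000253). Between the inhibitors, DSN1 was 0.70 ± 0.06 log2 units higher with MS023 (adjusted p = 7.05e-08). NSL1 (ENSG00000117697, chr1:212899495-212965124) was at 47.8, 50.7 and 47.7 CPM in the DMSO libraries, at 34.4, 33.9 and 37.8 CPM in the GSK591 libraries and at 40.9, 42.5 and 40.3 CPM in the MS023 libraries. For NSL1 no groups overlapped: the GSK591 libraries were lowest, the MS023 libraries came next and the DMSO libraries were highest. With GSK591, NSL1 fell by 0.46 ± 0.05 log2 units (adjusted p = 8.29e-07), and with MS023 it fell by 0.24 ± 0.05 log2 units (adjusted p = 0.000575). NSL1 in MS023 was 0.22 ± 0.05 log2 units above that in GSK591 (adjusted p = 0.000904). The PMF1 gene (ENSG00000160783, chr1:156182784-156212874) gave 36.9, 39.0 and 40.8 CPM with DMSO, 21.9, 20.3 and 21.3 CPM with GSK591 and 45.7, 39.3 and 41.4 CPM with MS023. The GSK591 libraries of PMF1 were all below the rest, while MS023 and DMSO overlapped. With GSK591, PMF1 fell by 0.88 ± 0.06 log2 units (adjusted p = 7.04e-09), and its log2 change with MS023, 0.12 ± 0.06 (adjusted p = 0.0999), was not called. Between the inhibitors, PMF1 was 0.99 ± 0.06 log2 units higher with MS023 (adjusted p = 1.14e-09). The PMF1 change for MS023 was called without MS023 2 (adjusted p = 0.0328). PMF1 overlaps the readthrough gene PMF1-BGLAP on the same strand. MIS12 fell by 0.57 log2 units with GSK591 and by 0.15 with MS023. The MIS12 call for MS023 was lost without DMSO 2 (adjusted p = 0.342), GSK591 1 (adjusted p = 0.0674), GSK591 3 (adjusted p = 0.0778), MS023 2 (adjusted p = 0.145) or MS023 3 (adjusted p = 0.0986). Within this 4-subunit complex the GSK591 changes ran from -1.03 in DSN1 to -0.46 in NSL1. ZWINT encodes a KNL1 partner that helps to bring in the corona proteins. For ZWINT (ENSG00000122952, chr10:58116989-58121036), the DMSO libraries held 87.4, 85.1 and 86.7 CPM, the GSK591 libraries 56.2, 51.8 and 56.0 CPM and the MS023 libraries 93.6, 95.7 and 94.1 CPM. In ZWINT, GSK591, DMSO and MS023 followed each other in rising order, without overlap. With GSK591, ZWINT fell by 0.66 ± 0.04 log2 units (adjusted p = 1.19e-09), and with MS023 it rose by 0.13 ± 0.04 log2 units (adjusted p = 0.0086). ZWINT in MS023 was 0.79 ± 0.04 log2 units above that in GSK591 (adjusted p = 1.03e-10). ZWINT rose in MS023 in every fit of the counts that left out a library, while in FPKM that rise, 0.12 to 0.13 log2 units, was not called (adjusted p = 0.0749 to 0.125 in limma).

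The NDC80 complex had the deepest class median, -1.17 with GSK591 and -0.47 with MS023, and all 4 subunits were called lower with each inhibitor. NDC80 and NUF2 encode the microtubule-binding end, and SPC24 and SPC25 the end that docks onto the inner kinetochore. SPC24 (ENSG00000161888, chr19:11242196-11266484) was at 16.6, 17.6 and 17.0 CPM in the DMSO libraries, at 6.43, 5.95 and 5.52 CPM in the GSK591 libraries and at 11.3, 11.0 and 11.1 CPM in the MS023 libraries. For SPC24 no groups overlapped: the GSK591 libraries were lowest, the MS023 libraries came next and the DMSO libraries were highest. With GSK591, SPC24 fell by 1.52 ± 0.07 log2 units (adjusted p = 7.69e-11), and with MS023 it fell by 0.62 ± 0.06 log2 units (adjusted p = 9.48e-07). Between the inhibitors, SPC24 was 0.91 ± 0.07 log2 units higher with MS023 (adjusted p = 1.76e-08). That is 2.88-fold lower with GSK591. The SPC25 gene (ENSG00000152253, chr2:169690642-169769881) gave 28.4, 32.1 and 30.3 CPM with DMSO, 12.3, 11.2 and 12.1 CPM with GSK591 and 22.2, 20.7 and 20.7 CPM with MS023. For SPC25, every GSK591 library was below every MS023 library, and every MS023 library was below every DMSO library. With GSK591, SPC25 fell by 1.36 ± 0.06 log2 units (adjusted p = 9.75e-11), and with MS023 it fell by 0.51 ± 0.06 log2 units (adjusted p = 3.13e-06). SPC25 in MS023 was 0.85 ± 0.06 log2 units above that in GSK591 (adjusted p = 1.14e-08). For NUF2 (ENSG00000143228, chr1:163236366-163325554), the DMSO libraries held 54.6, 55.2 and 57.0 CPM, the GSK591 libraries 28.0, 26.9 and 29.6 CPM and the MS023 libraries 45.2, 41.7 and 44.6 CPM. In NUF2, GSK591, MS023 and DMSO followed each other in rising order, without overlap. With GSK591, NUF2 fell by 0.98 ± 0.05 log2 units (adjusted p = 1.85e-10), and with MS023 it fell by 0.34 ± 0.04 log2 units (adjusted p = 1.74e-05). Between the inhibitors, NUF2 was 0.64 ± 0.05 log2 units higher with MS023 (adjusted p = 1.35e-08). NDC80 (ENSG00000080986, chr18:2571510-2616634) was at 23.7, 24.6 and 23.1 CPM in the DMSO libraries, at 11.9, 14.1 and 13.3 CPM in the GSK591 libraries and at 17.8, 17.7 and 17.4 CPM in the MS023 libraries. For NDC80 no groups overlapped: the GSK591 libraries were lowest, the MS023 libraries came next and the DMSO libraries were highest. With GSK591, NDC80 fell by 0.86 ± 0.06 log2 units (adjusted p = 1.47e-08), and with MS023 it fell by 0.43 ± 0.06 log2 units (adjusted p = 2.4e-05). NDC80 in MS023 was 0.42 ± 0.06 log2 units above that in GSK591 (adjusted p = 2.35e-05). The RNAs of the docking subunits fell further than those of the microtubule-binding ones in GSK591. The log2 ratio of SPC24 to NDC80 was -0.51, -0.48 and -0.45 in DMSO, -0.89, -1.25 and -1.27 in GSK591 and -0.66, -0.68 and -0.65 in MS023. For SPC25 to NUF2 it was -0.94, -0.78 and -0.91, -1.19, -1.27 and -1.30 and -1.02, -1.01 and -1.11. In both ratios DMSO was highest, MS023 next and GSK591 lowest, without overlap. SPC25 overlaps NOSTRIN and G6PC2 on the opposite strand.

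In the fibrous corona, which forms on unattached kinetochores, 4 of 5 members fell with GSK591 (class median -0.78) and all 5 with MS023 (class median -0.25). CENPE encodes a kinesin that carries chromosomes towards the spindle equator. The CENPE gene (ENSG00000138778, chr4:104026963-104119566) gave 124, 137 and 127 CPM with DMSO, 75.4, 75.4 and 74.6 CPM with GSK591 and 101, 91.0 and 93.8 CPM with MS023. For CENPE, every GSK591 library was below every MS023 library, and every MS023 library was below every DMSO library. With GSK591, CENPE fell by 0.78 ± 0.04 log2 units (adjusted p = 9.25e-10), and with MS023 it fell by 0.44 ± 0.04 log2 units (adjusted p = 8.21e-07). Between the inhibitors, CENPE was 0.34 ± 0.04 log2 units higher with MS023 (adjusted p = 5.28e-06). CENPF, a large coiled-coil protein, fell by 0.75 log2 units with GSK591 and by 0.32 with MS023. KNTC1 (also called ROD), ZWILCH and ZW10 encode the 3 subunits of the complex that brings dynein and MAD1 to kinetochores. For KNTC1 (ENSG00000184445, chr12:123011793-123110943), the DMSO libraries held 128, 132 and 139 CPM, the GSK591 libraries 65.2, 69.3 and 66.4 CPM and the MS023 libraries 116, 110.3 and 111 CPM. In KNTC1, GSK591, MS023 and DMSO followed each other in rising order, without overlap. With GSK591, KNTC1 fell by 0.99 ± 0.04 log2 units (adjusted p = 3.14e-11), and with MS023 it fell by 0.25 ± 0.04 log2 units (adjusted p = 8.25e-05). KNTC1 in MS023 was 0.75 ± 0.04 log2 units above that in GSK591 (adjusted p = 2.9e-10). ZWILCH (ENSG00000174442, chr15:66797297-66842115) was at 99.2, 112 and 105 CPM in the DMSO libraries, at 58.6, 58.4 and 59.8 CPM in the GSK591 libraries and at 102, 92.9 and 95.8 CPM in the MS023 libraries. The GSK591 libraries of ZWILCH were all below the rest, while MS023 and DMSO overlapped. With GSK591, ZWILCH fell by 0.84 ± 0.05 log2 units (adjusted p = 1.11e-09), and with MS023 it fell by 0.12 ± 0.05 log2 units (adjusted p = 0.0435). Between the inhibitors, ZWILCH was 0.72 ± 0.05 log2 units higher with MS023 (adjusted p = 3.83e-09). The ZWILCH call for MS023 was lost without DMSO 2 (adjusted p = 0.345), DMSO 3 (adjusted p = 0.0785), GSK591 1 (adjusted p = 0.0926), GSK591 3 (adjusted p = 0.0935), MS023 2 (adjusted p = 0.204) or MS023 3 (adjusted p = 0.133). The ZW10 gene (ENSG00000086827, chr11:113603909-113644533) gave 30.7, 33.6 and 31.0 CPM with DMSO, 29.6, 29.1 and 30.4 CPM with GSK591 and 30.6, 27.4 and 28.9 CPM with MS023. For ZW10, MS023 and GSK591 overlapped, and all DMSO libraries were above them. With MS023, ZW10 fell by 0.13 ± 0.05 log2 units (adjusted p = 0.0395), and its log2 change with GSK591, -0.10 ± 0.05 (adjusted p = 0.108), was not called. Between the inhibitors, the log2 difference of ZW10, MS023 against GSK591, was -0.04 ± 0.05 (adjusted p = 0.559) and was not called. The ZW10 call for MS023 was lost without DMSO 2 (adjusted p = 0.249), GSK591 1 (adjusted p = 0.0726), GSK591 3 (adjusted p = 0.068), MS023 2 (adjusted p = 0.184) or MS023 3 (adjusted p = 0.0938). The 3 subunits of this complex therefore differed with GSK591: KNTC1 and ZWILCH fell, and ZW10, which also works in membrane traffic outside mitosis, was not called. As a log2 ratio, ZW10 over KNTC1 was -2.07, -1.97 and -2.17 in DMSO, -1.14, -1.25 and -1.13 in GSK591 and -1.92, -2.01 and -1.94 in MS023, so that every GSK591 ratio was above all others. The MS023 calls of ZW10 and ZWILCH were weak, being lost in 14 of 21 and 15 of 21 alternative settings.

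Among the 6 checkpoint members, 5 were called lower with each inhibitor, with class medians of -0.77 for GSK591 and -0.28 for MS023, and MAD1L1 was not called in any comparison of the counts. BUB1 encodes a kinase that marks centromeric chromatin and recruits other checkpoint proteins. For BUB1 (ENSG00000169679, chr2:111395275-111435691), the DMSO libraries held 148, 156 and 150.3 CPM, the GSK591 libraries 74.6, 74.4 and 73.6 CPM and the MS023 libraries 116, 113 and 106 CPM. In BUB1, GSK591, MS023 and DMSO followed each other in rising order, without overlap. With GSK591, BUB1 fell by 1.03 ± 0.04 log2 units (adjusted p = 1.98e-11), and with MS023 it fell by 0.44 ± 0.04 log2 units (adjusted p = 2.39e-07). Between the inhibitors, BUB1 was 0.59 ± 0.04 log2 units higher with MS023 (adjusted p = 3.39e-09). BUB1B encodes BUBR1, a part of the complex that inhibits the anaphase-promoting complex. BUB1B (ENSG00000156970, chr15:40453224-40513337) was at 84.4, 91.3 and 85.6 CPM in the DMSO libraries, at 47.9, 44.5 and 47.8 CPM in the GSK591 libraries and at 70.6, 72.1 and 70.8 CPM in the MS023 libraries. For BUB1B no groups overlapped: the GSK591 libraries were lowest, the MS023 libraries came next and the DMSO libraries were highest. With GSK591, BUB1B fell by 0.90 ± 0.04 log2 units (adjusted p = 1.64e-10), and with MS023 it fell by 0.29 ± 0.04 log2 units (adjusted p = 3.48e-05). BUB1B in MS023 was 0.61 ± 0.04 log2 units above that in GSK591 (adjusted p = 7.39e-09). It overlaps the readthrough gene BUB1B-PAK6 on the same strand. MAD2L1 encodes MAD2, which captures CDC20, and MAD1L1 encodes MAD1, which loads MAD2 onto unattached kinetochores. The MAD2L1 gene (ENSG00000164109, chr4:120976763-120988229) gave 68.2, 83.8 and 73.3 CPM with DMSO, 39.5, 36.4 and 43.3 CPM with GSK591 and 63.0, 55.8 and 59.6 CPM with MS023. For MAD2L1, every GSK591 library was below every MS023 library, and every MS023 library was below every DMSO library. With GSK591, MAD2L1 fell by 0.92 ± 0.07 log2 units (adjusted p = 6.24e-08), and with MS023 it fell by 0.34 ± 0.07 log2 units (adjusted p = 0.00134). Between the inhibitors, MAD2L1 was 0.58 ± 0.07 log2 units higher with MS023 (adjusted p = 6.47e-06). For MAD1L1 (ENSG00000002822, chr7:1855429-2272878), the DMSO libraries held 22.7, 21.6 and 23.2 CPM, the GSK591 libraries 21.3, 20.9 and 21.4 CPM and the MS023 libraries 21.7, 21.5 and 21.2 CPM. All GSK591 libraries of MAD1L1 were below all DMSO libraries, and the MS023 libraries overlapped both groups. The log2 changes of MAD1L1, -0.09 ± 0.05 with GSK591 (adjusted p = 0.116) and -0.07 ± 0.05 with MS023 (adjusted p = 0.24), were not called. Between the inhibitors, the log2 difference of MAD1L1, MS023 against GSK591, was 0.02 ± 0.05 (adjusted p = 0.724) and was not called. In FPKM, MAD1L1 was called lower with GSK591, at -0.32 log2 units with a pseudocount of 1 (adjusted p = 0.0132 in limma). In the same setting MAD1L1 was also called higher with MS023 than with GSK591, by 0.27 log2 units (adjusted p = 0.0241 in limma). MAD2L1 over MAD1L1 had a log2 ratio of 1.59, 1.96 and 1.66 in DMSO, 0.89, 0.80 and 1.02 in GSK591 and 1.54, 1.38 and 1.49 in MS023, lowest in every GSK591 library. BUB3, which binds BUB1 and BUBR1, fell by 0.41 log2 units with GSK591 and by 0.17 with MS023. TTK, the MPS1 kinase that starts checkpoint signalling, fell by 0.64 and by 0.27. The log2 ratio of BUB1 to BUB3 was -0.52, -0.54 and -0.54 in DMSO, -1.12, -1.14 and -1.19 in GSK591 and -0.78, -0.75 and -0.89 in MS023, with no overlap between groups.

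The shugoshins SGOL1 and SGOL2, now named SGO1 and SGO2, encode proteins that shield centromeric cohesin from removal. SGOL1 (ENSG00000129810, chr3:20202085-20227784) was at 39.7, 43.3 and 40.4 CPM in the DMSO libraries, at 21.3, 20.4 and 21.4 CPM in the GSK591 libraries and at 34.4, 35.5 and 35.5 CPM in the MS023 libraries. For SGOL1 no groups overlapped: the GSK591 libraries were lowest, the MS023 libraries came next and the DMSO libraries were highest. With GSK591, SGOL1 fell by 0.97 ± 0.04 log2 units (adjusted p = 1.62e-10), and with MS023 it fell by 0.23 ± 0.04 log2 units (adjusted p = 0.000506). Between the inhibitors, SGOL1 was 0.74 ± 0.04 log2 units higher with MS023 (adjusted p = 1.83e-09). The SGOL2 gene (ENSG00000163535, chr2:201374731-201448505) gave 110.1, 114 and 108 CPM with DMSO, 74.8, 76.7 and 77.0 CPM with GSK591 and 82.9, 80.8 and 83.9 CPM with MS023. For SGOL2, every GSK591 library was below every MS023 library, and every MS023 library was below every DMSO library. With GSK591, SGOL2 fell by 0.54 ± 0.03 log2 units (adjusted p = 2.74e-09), and with MS023 it fell by 0.43 ± 0.03 log2 units (adjusted p = 7.53e-08). SGOL2 in MS023 was 0.12 ± 0.03 log2 units above that in GSK591 (adjusted p = 0.0061). The SGOL2 call for the difference between the inhibitors was lost without MS023 3 (adjusted p = 0.0655). SGOL2 was the member of the pair with the smaller fall in GSK591 and the larger in MS023. The log2 ratio of SGOL1 to SGOL2 was -1.47, -1.40 and -1.43 in DMSO, -1.81, -1.91 and -1.85 in GSK591 and -1.27, -1.19 and -1.24 in MS023. The ratio thus lay below DMSO in every GSK591 library and above DMSO in every MS023 library. SGOL1 overlaps the antisense gene SGO1-AS1.

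The pattern of the rule also took 3 genes with a CENP name and other roles. CENPJ encodes a centriole assembly protein. For CENPJ (ENSG00000151849, chr13:25457171-25497018), the DMSO libraries held 35.4, 39.0 and 37.5 CPM, the GSK591 libraries 30.4, 30.0 and 28.9 CPM and the MS023 libraries 39.3, 39.7 and 39.6 CPM. In CENPJ, GSK591, DMSO and MS023 followed each other in rising order, without overlap. With GSK591, CENPJ fell by 0.33 ± 0.04 log2 units (adjusted p = 1.16e-05), and its log2 change with MS023, 0.08 ± 0.04 (adjusted p = 0.119), was not called. Between the inhibitors, CENPJ was 0.41 ± 0.04 log2 units higher with MS023 (adjusted p = 8.72e-07). The CENPJ change for MS023 was called without DMSO 2 (adjusted p = 0.0246). CENPV encodes a protein first found at centromeres. CENPV (ENSG00000166582, chr17:16245848-16256970) was at 50.6, 47.9 and 52.5 CPM in the DMSO libraries, at 32.9, 30.2 and 29.6 CPM in the GSK591 libraries and at 42.1, 39.7 and 41.3 CPM in the MS023 libraries. For CENPV no groups overlapped: the GSK591 libraries were lowest, the MS023 libraries came next and the DMSO libraries were highest. With GSK591, CENPV fell by 0.71 ± 0.05 log2 units (adjusted p = 1.2e-08), and with MS023 it fell by 0.29 ± 0.05 log2 units (adjusted p = 0.000133). CENPV in MS023 was 0.41 ± 0.05 log2 units above that in GSK591 (adjusted p = 3.23e-06). CENPBD1 is named for a DNA-binding domain like that of CENP-B. The CENPBD1 gene (ENSG00000177946, chr16:90036206-90038942) gave 13.4, 13.4 and 13.3 CPM with DMSO, 9.88, 10.7 and 10.7 CPM with GSK591 and 9.29, 8.90 and 9.96 CPM with MS023. The DMSO libraries of CENPBD1 were all above the rest, while MS023 and GSK591 overlapped. With GSK591, CENPBD1 fell by 0.36 ± 0.06 log2 units (adjusted p = 0.000152), and with MS023 it fell by 0.51 ± 0.06 log2 units (adjusted p = 8.56e-06). Between the inhibitors, CENPBD1 had a log2 difference of -0.15 ± 0.06 for MS023 against GSK591 (adjusted p = 0.0446), that is, lower with MS023. The CENPBD1 call for the difference between the inhibitors was lost without DMSO 1 (adjusted p = 0.0523), DMSO 3 (adjusted p = 0.0574), GSK591 2 (adjusted p = 0.105), GSK591 3 (adjusted p = 0.123), MS023 1 (adjusted p = 0.11) or MS023 2 (adjusted p = 0.146). RefSeq lists CENPBD1 as a transcribed pseudogene and GENCODE 29 as protein coding, so its place among the members rests on the name pattern. For CENPV the deposited FPKM gave a wider gap than the counts with GSK591 only: 49.4 ± 3.52 FPKM (SD, n = 3) with DMSO and 21.8 ± 0.944 with GSK591. With MS023, CENPV was at 41.0 ± 3.72 FPKM. That log2 change, -0.27 with a pseudocount of 1 and no filter, was not called (adjusted p = 0.0529 in limma).

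Levels of different genes were compared per length, in the authors' FPKM. With DMSO the members ran from CENPP at 1.37 FPKM to BUB3 at 92.2 FPKM. Partners of 1 complex stood at unequal levels. In the NDC80 complex, NUF2 was at 25.6 ± 1.41 FPKM (SD, n = 3), SPC25 at 19.5 ± 1.73, SPC24 at 14.9 ± 0.826 and NDC80 at 11.1 ± 0.252 with DMSO. With GSK591 the lowest subunit was SPC24 at 5.42 ± 0.473 FPKM, next to NDC80 at 5.52 ± 0.121, and these 2 did not differ beyond their spread. In the inner network CENPH went from 31.5 ± 2.62 FPKM with DMSO, close to CENPK at 32.0 ± 0.806, to 6.94 ± 0.496 with GSK591, where CENPK was at 18.3 ± 0.795. With MS023 CENPH was at 18.1 ± 1.10 FPKM and CENPK at 29.2 ± 0.289. CENPA was at 43.4 ± 4.82 FPKM with DMSO, near CENPB at 46.2 ± 3.65, and at 15.6 ± 0.234 with GSK591, where CENPB was at 41.8 ± 1.98. The order of these 2 genes was thus clear with GSK591 and within their spread with DMSO.

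**Figure D5:**
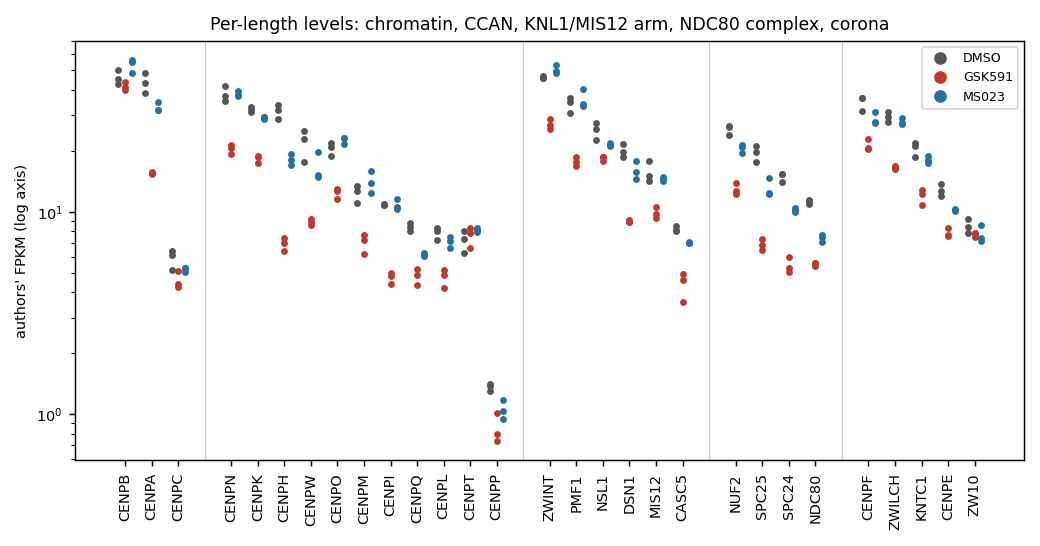
The authors' FPKM (vertical log axis) of the members of 5 role classes in each library, with DMSO in grey, GSK591 in red and MS023 in blue, each class ordered by its DMSO mean. CENPP is the lowest at 1.37 FPKM with DMSO, and CENPH leaves its place beside CENPK to fall to 6.94 FPKM with GSK591.

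A list of 24 partners outside the rule, among them the CENP-A loading factors, the SKA complex and the chromosomal passenger complex, was measured beside the members. With GSK591, edgeR called 23 lower and 0 higher (median -0.74), with 24 lower and 0 higher at an unadjusted p under 0.05 and 22 and 0 in DESeq2. With MS023, 13 (54.2%) were called lower and 1 higher (median -0.14), where 30 of 40 members were lower (median -0.26), a difference that was not tested. With MS023 against GSK591, 23 were higher and 1, SPDL1, was lower. The kinase AURKB, of the passenger complex, fell by 1.12 log2 units with GSK591 and stood at -0.02 with MS023, which was not called (adjusted p = 0.838). OIP5, of the complex that licenses CENP-A loading, fell by 1.12 log2 units with GSK591 and by 0.33 with MS023. With MS023 the largest changes were in KIF18A, a kinesin that dampens chromosome movement, which fell by 0.56 log2 units, and in STRA13, an inner network member also called CENP-X, which rose by 0.40. The smallest were those of AURKB and of PLK1, a mitotic kinase, at -0.03 (adjusted p = 0.62), though PLK1 fell by 0.63 with GSK591. The checkpoint silencer MAD2L1BP, at -0.17 log2 units, was not called with GSK591 (adjusted p = 0.0561). SPDL1, a dynein adaptor at kinetochores, was at -0.09 with an adjusted p of 0.0487. That call was lost without DMSO 2 (adjusted p = 0.222), DMSO 3 (adjusted p = 0.0999), GSK591 1 (adjusted p = 0.331), GSK591 3 (adjusted p = 0.121), MS023 2 (adjusted p = 0.0761) or MS023 3 (adjusted p = 0.0846). Without DMSO 1, the partners called higher with MS023 numbered 2.

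The overlapping genes were set aside by counting only the 16 members that no other gene overlaps in GENCODE 29. The annotation used for the counting is not given, so overlaps in it may differ. With GSK591, edgeR called 15 of these lower and 0 higher, as did an unadjusted p under 0.05, with a median log2 change of -0.73. Over all genes tested, edgeR called 32.4% lower and 30.1% higher. With MS023, 11 were lower and 2 higher, with a median of -0.21, beside 25.9% and 25.1% of all genes. Between the inhibitors, 15 were higher with MS023, beside 33.6% of all genes. No share was taken over all genes without overlap, or at an unadjusted p. The members' summed level was 2681 to 2834 CPM in the DMSO libraries, 1660 to 1684 in the GSK591 libraries and 2331 to 2408 in the MS023 libraries, with no overlap between groups.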

How the data were processed

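Ribosome-depleted total RNA of 9 A549 libraries was sequenced as paired ends, per the labels. The authors deposited a table of whole-number read counts per gene without normalisation, and FPKM tables, one per library, in the layout of Cufflinks. The submitters' processing notes name cutadapt, STAR, featureCounts and DESeq2 with build hg19. Versions, annotation and strand setting are each not given in the sources used here. The 0 count columns without a sample here left nothing out.

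Members were matched by symbol in the FPKM tables and by identifier in the count table. Start positions in the FPKM tables count from 0, checked against GENCODE 29 gene lengths, and were raised by 1. The count table was fitted in edgeR 4.0.16 (R 4.3.3): filterByExpr (minimum count 10, minimum total 15), TMM scaling, and a quasi-likelihood fit of group over all 9 libraries. Tests are two-sided, p-values are adjusted over 18292 genes by Benjamini-Hochberg at 0.05, and a standard error is the log2 change divided by the square root of F. The method was tested on simulated data. Levels per length are the deposited FPKM, and their log2 (FPKM + 1) values were tested in limma 3.58.1 as an alternative, as were DESeq2 1.42.0, other scalings and filters, and each library left out. Depth of 31398075 to 51244525 counts per library leaves few counts below 1 CPM, but all members were above it in DMSO. Reads are not independent molecules. No pair of libraries was identical (0 of 36).

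The members and lists were chosen with earlier results of these data known. Full values are given, per role class, for the members with the largest and smallest change in each comparison with DMSO. They are also given for members not called or called higher, and for those at least 0.5 log2 units apart between the inhibitors. Of the partners, the 2 largest and 2 smallest changes in each comparison with DMSO are named. The CENPH neighbours and ratios within complexes were chosen after the values were seen. Same-numbered replicates did not deviate together, so no pairing was used.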

Additional observations from a re-analysis of the deposited data

How the results depend on the processing

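No called change of a member reversed under any alternative. Changes that were not called crossed 0 under at least 1 setting for CENPI and CENPN with MS023, and for CENPT, MAD1L1 and ZW10 between the inhibitors. Over the 21 alternative settings other than the stricter p and the test against a log2 change of 0.5, the calls of 37 of 40 members with GSK591, 19 with MS023 and 35 between the inhibitors did not change. With GSK591, the members called higher numbered 1, CENPT, with no filter, total-count scaling, a filter of 1 CPM in 3 libraries, TMM without the 20 top genes, the 6 libraries alone, and with DMSO 1 and GSK591 3 left out, and 0 to 1 with each library left out. The median log2 change was -0.72 with total counts, -0.74 with the filter of 1 CPM, -0.74 in FPKM + 1 whether filtered or not, -0.80 in FPKM + 0.1, and -0.79 to -0.74 with each library left out. With MS023, the members called higher numbered 7 with total counts, 2 with a replicate block, 1 in DESeq2, 1 at an adjusted p under 0.01, 0 in FPKM + 1 and FPKM + 0.1, 1 in filtered FPKM, and 1 to 5 with each library left out. The members called lower numbered 17 in FPKM + 1 and in FPKM + 0.1, and against a log2 change of 0.5 (glmTreat) 1 was lower and 0 higher. Of all 18292 genes, 880 were lower and 917 higher with MS023 in that test. For GSK591 the same test called 28 members lower and 0 higher, where 1216 of all genes were lower and 2041 higher. The median with MS023 was -0.22 with total counts, -0.24 without a filter, -0.21 in FPKM + 1 whether filtered or not, -0.23 in FPKM + 0.1, and -0.27 to -0.23 with each library left out. Between the inhibitors, the member called lower (1) became 0 without a filter, with a replicate block, in DESeq2, in all FPKM settings, at the stricter p, against 0.5, and without DMSO 1 and GSK591 3, and was 0 to 1 with each library left out. Against 0.5, 19 were higher, where 1740 of all 18292 genes were higher and 2437 lower. The median difference was 0.57 with RLE scaling, 0.56 with total counts, 0.57 without the 20 most abundant genes, 0.60 without a filter, 0.54 with the filter of 1 CPM, 0.60 without both libraries, 0.56 with the 6 libraries alone, 0.62 in FPKM + 0.1, and 0.54 to 0.60 with each library left out. The cause was not tested, beyond the fewer libraries or genes of some settings. Replicate numbers did not pair the libraries: over 9 same-numbered pairs, deviations correlated with r from -0.43 to 0.258, 2 over 0.1, and 1 of 9 libraries correlated best with its own number. With the replicate block, 36 members were lower and 0 higher with GSK591, 27 and 2 with MS023, and 36 higher and 0 lower between the inhibitors. With 3 libraries a group, changes near 0.15 log2 units lay at the limit of what was called.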

Other observations

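Of 23 other genes of G2 and mitosis, all 23 were called lower with GSK591 in edgeR and 0 higher, also at an unadjusted p under 0.05 and in DESeq2, with a median log2 change of -1.003. With MS023, 17 were lower and 0 higher (0 at an unadjusted p under 0.05 and in DESeq2, 1 without DMSO 1), with a median of -0.21. PTTG1, the securin that anaphase removes, fell by 1.44 log2 units with GSK591 and by 0.25 with MS023, and TOP2A, the topoisomerase that untangles sister chromatids, by 1.39 and 0.28. CDK1, the kinase of mitotic entry, fell by 0.94 with GSK591 and had a log2 change of -0.06 with MS023, which was not called (adjusted p = 0.193). All 23 were higher with MS023 than with GSK591. The members' median of -0.79 with GSK591 was thus smaller in size than that of this list, a description without a test of the difference.

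Of 28 DNA replication genes, 27 were called lower with GSK591 and 0 higher (0 at an unadjusted p under 0.05 and in DESeq2), with a median of -0.69, and POLE was not called (adjusted p = 0.292). With MS023, 7 were lower and 9 higher, shares near the 25.9% lower and 25.1% higher of all genes tested, with a median of 0.03, and without MS023 3 the number higher was 6. CDC45, a part of the replicative helicase, fell by 1.09 log2 units with GSK591 and rose by 0.26 with MS023. PCNA, the sliding clamp, fell by 0.59 and by 0.37.

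Among the pseudogene copies that were left out, CENPVP3 had 6 counts in the DMSO libraries together, 30 in GSK591 and 2 in MS023, and CENPCP1 had 27, 17 and 23. CENPIP1, CENPVP1 and CENPVP2 had 0 counts in each group. None entered the tests, and reads shared between CENPV or CENPC and a copy would be uncertain.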
